A study of Homo sapiens with 9 samples.

Results

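The regions here are stretches of chromatin whose peak call was the same in the voting libraries of both STAG2 mutant lines of K562 cells. The voting libraries of parental cells had the opposite call, under a rule of presence and absence in ATAC-seq peak lists. Of 122459 merged regions, 4941 were members: 617 gained in the mutant lines and 4324 lost. The members were chosen by the measured peak ranks themselves, so their counts are a description of the rule's outcome and not a test of it. The rule ranked each library's peaks by −log10 p, took the first 50000 on 17 chromosomes, 1 to 4 and 10 to 22, and merged peaks of the 9 libraries that overlapped by at least 1 bp. A gained region had such a peak in heterozygous 2, heterozygous 3 and homozygous 1 to 3 and none in wild type 1 and wild type 2, and a lost region was the reverse. Wild type 3 and heterozygous 1 did not vote. They served as a check. In that check wild type 3 did not sit with wild type 1 and wild type 2, which bears on every result below.

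K562 is a human leukaemia line of erythroid character. Wild type libraries came from parental K562 cells with no STAG2 mutation, heterozygous libraries from a line with the R614* stop mutation on 1 allele, and homozygous libraries from a line with R614* and no intact allele, with 3 libraries per genotype. All cells were grown in the same serum-containing medium with no treatment named, and only the homozygous cells are described as adherent. Each genotype is 1 line, so genotype and line cannot be told apart, and nothing in the labels says whether replicates were separate cultures.

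STAG2 belongs to cohesin, a protein ring that keeps sister chromatids together and extrudes DNA loops, which often stop at sites bound by the zinc-finger protein CTCF. STAG1 is the paralogue that can take the place of STAG2 in the ring. In ATAC-seq the Tn5 transposase inserts adapters where DNA is free of nucleosomes, so a peak marks an accessible promoter, enhancer or insulator. In a pool of cells, a site open in fewer cells and a site less open in each cell cannot be told apart.

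Sequences of the strongest members, and of the strongest ones with a motif match, are given as examples and do not stand for all members. Each is the 300 bp around the centre of the region's strongest peak, from the plus strand of GRCh37, in lower case with motif matches in capitals. The motif letters were AGATAA for GATA factors, which drive erythroid genes, and TGANTCA for AP-1, the dimers of FOS and JUN proteins. CTCF matches follow its core consensus. Both strands were searched, for exact matches to the letters only.

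The strongest gained region lay in an intron of ELF5, 0.705 kb from a start site of this ETS factor gene, and the next in an intron of the phosphatase gene PPM1H. Neither held a GATA, AP-1 or CTCF match.
gained, ELF5 intron, chr11:34534457-34534756: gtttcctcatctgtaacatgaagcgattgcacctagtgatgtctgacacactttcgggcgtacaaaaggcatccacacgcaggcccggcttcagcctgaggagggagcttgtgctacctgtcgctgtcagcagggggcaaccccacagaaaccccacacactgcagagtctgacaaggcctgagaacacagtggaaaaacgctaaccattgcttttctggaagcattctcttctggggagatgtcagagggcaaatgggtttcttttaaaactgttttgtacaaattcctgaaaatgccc
gained, PPM1H intron, chr12:63294448-63294747: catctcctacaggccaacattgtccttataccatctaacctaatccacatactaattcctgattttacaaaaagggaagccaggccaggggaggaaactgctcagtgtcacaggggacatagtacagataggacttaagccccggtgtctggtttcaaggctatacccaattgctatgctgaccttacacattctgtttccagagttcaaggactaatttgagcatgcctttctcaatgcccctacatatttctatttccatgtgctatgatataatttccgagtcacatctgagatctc

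The strongest gained region with a CTCF match lay in an intron of DUSP13, 0.59 kb from a start site of SAMD8. Capitals mark the match.
gained, DUSP13 intron near SAMD8, chr10:76859784-76860083: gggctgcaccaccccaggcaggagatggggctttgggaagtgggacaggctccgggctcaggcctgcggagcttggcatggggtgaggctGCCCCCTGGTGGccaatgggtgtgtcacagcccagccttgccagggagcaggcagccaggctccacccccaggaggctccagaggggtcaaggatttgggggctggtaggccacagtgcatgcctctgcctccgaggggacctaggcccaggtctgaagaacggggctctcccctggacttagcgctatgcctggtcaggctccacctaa

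Among lost regions, the strongest lay between genes, 28.9 kb from a start site of CCDC178, and held a GATA match in capitals. The next one shown lay in an intron of the lncRNA AGA-DT and held no match, and the strongest lost region with a CTCF match, in capitals, lay 3.29 kb from a start site of USP13.
lost, near CCDC178, chr18:31049771-31050070: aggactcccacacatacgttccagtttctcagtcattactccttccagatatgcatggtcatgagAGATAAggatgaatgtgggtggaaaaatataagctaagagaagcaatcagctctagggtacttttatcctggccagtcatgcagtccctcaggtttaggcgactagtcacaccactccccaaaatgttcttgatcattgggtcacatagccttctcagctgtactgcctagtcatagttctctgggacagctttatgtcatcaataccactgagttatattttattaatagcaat
lost, AGA-DT intron, chr4:178449738-178450037: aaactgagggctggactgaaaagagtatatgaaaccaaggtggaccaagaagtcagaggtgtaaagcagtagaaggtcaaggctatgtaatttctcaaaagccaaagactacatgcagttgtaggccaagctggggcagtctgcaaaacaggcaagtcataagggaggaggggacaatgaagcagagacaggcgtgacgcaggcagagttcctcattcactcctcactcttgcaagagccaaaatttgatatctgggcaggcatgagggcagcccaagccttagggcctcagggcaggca
lost, near USP13, chr3:179367375-179367674: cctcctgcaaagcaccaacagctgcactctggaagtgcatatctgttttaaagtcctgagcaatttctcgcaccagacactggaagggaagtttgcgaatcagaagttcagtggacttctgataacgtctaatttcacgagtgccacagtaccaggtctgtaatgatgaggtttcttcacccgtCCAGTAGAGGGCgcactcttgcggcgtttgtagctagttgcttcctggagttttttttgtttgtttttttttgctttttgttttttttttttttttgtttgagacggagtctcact

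The libraries bore on these results in ways that have to be stated first. Lists held between 181579 and 319986 peaks, read counts were not part of the files, and the depth of each library is unknown. Wild type 1 and wild type 2 shared 23.1% of the intervals of the shorter list exactly, to the base at both ends, and wild type 3 and heterozygous 1 shared 46.0%. Heterozygous 2 and 3 shared 1.11%, and the other 33 pairs of libraries shared 0.232% to 0.350%. How the shared intervals arose was not tested. A peak of the 50000 lay at the start site of 5 of 10 erythroid marker genes in all 9 libraries, TAL1 and TFRC among them, and at that of KLF1 in none. Of 10 markers of other blood cells, 1 had such a peak in all 9 libraries and 7 in none. Of 7 markers of adherent or epithelial cells, 5 had one in all 9 libraries, wild type included, and CDH1 and CDH5 in none.

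The gained regions were 0.504% of all merged regions and the lost regions 3.53%. A gained region needed peaks in 5 libraries and absence from 2, a lost region peaks in 2 and absence from 5, so the counts cannot be compared as if both had the same requirement. Leaving out 1 vote drops a requirement, so it can only raise the counts. Without wild type 2 there were 1087 gained and 8699 lost regions, and without wild type 1 there were 7848 lost regions. Without heterozygous 2, heterozygous 3 or homozygous 2 the gained regions numbered 955, 951 and 942. Ranking the peaks over chromosomes 1 to 22 and X before keeping the 17 chromosomes gave 463 gained and 2390 lost regions.

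Wild type 3, which did not vote, had most of the gained regions and few of the lost ones. It held 421 of the 617 gained regions among its 50000 peaks, 68.2% with a 95% Wilson interval of 64.5% to 71.8%. Heterozygous 1 held 426, or 69.0% (65.3% to 72.6%). Of the lost regions, wild type 3 held 726 (16.8%) and heterozygous 1 held 651 (15.1%). The wild type library and the heterozygous library thus sat side by side in both directions, and for most members they had the call of the voting mutant libraries. Wilson intervals here cover counting error only, since regions of 1 library are not replicates.

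The same libraries were ordinary over regions at large. Of the 20159 regions found in all 5 voting mutant libraries, wild type 1 held 94.6%, wild type 2 95.5%, wild type 3 96.2% and heterozygous 1 96.0%. Of the 40694 regions found in both wild type 1 and wild type 2, wild type 3 held 76.2% and heterozygous 1 75.6%. Lost regions, at 16.8% and 15.1%, lay far under those last shares. Gained regions, at 68.2% and 69.0%, also lay far under the 96.2% and 96.0% of regions in all 5 voting mutant libraries. Neither set is a close match for the members, since 18168 regions of each were in all 9 libraries and so held by every library. Lost regions also ranked lower, with a median rank of 34314 in wild type 1 against 10894 for regions in all 9 libraries. The rule itself sets the voting libraries to 0% or 100% of gained regions, so a place between these has no independent scale. Of the 20502 regions in none of the 5 voting mutant libraries, wild type 1 held 42.4%, wild type 2 38.3%, wild type 3 36.1% and heterozygous 1 36.4%. A region of that set exists only because at least 1 of these libraries held it, so its shares are partly set by the merging. Lost regions lay under the last 2 shares, from which nothing is read.

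Region by region, 389 gained regions (63.1%) were in both wild type 3 and heterozygous 1 and 159 (25.8%) in neither. At the 389 wild type 3 went against its label, and at the 159 heterozygous 1 did. Such regions do not separate the held-out libraries from each other. Of the 69 gained regions in exactly 1 of them, 37 were in heterozygous 1 and 32 in wild type 3, so 53.6% (42.0% to 64.9%) followed the labels. The direction turned with the number of peaks ranked: the share was 42.9% with 20000, 44.6% with 30000, 40.0% with 75000, 46.98% with 100000 and 29.2% with full lists. Those shares rest on few regions, from 56 with 20000 peaks to 149 with 100000. Of the lost regions, 546 (12.6%) were in both and 3493 (80.8%) in neither. Of the 285 in exactly 1 library, 180 were in wild type 3 and 105 in heterozygous 1, so 63.2% (57.4% to 68.5%) followed the labels. Over all merged regions in exactly 1 of these libraries, heterozygous 1 was the holder of 49.1% (48.1% to 50.1%). With 1 library of each genotype, and these libraries sharing intervals, the lean of the lost regions has no replicate check.

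The within-list percentile of the peaks depends on list length as well as rank. Wild type 3 listed 184669 peaks on the chromosomes used and heterozygous 1 listed 163268, so at equal rank wild type 3 has the higher percentile. That gap grows as ranks go down the list, and gained, lost and all regions differ in rank. Comparison with all merged regions therefore does not remove it. Of 576 gained regions with a peak in the full lists of both held-out libraries, heterozygous 1 had the higher percentile in 33.2% (29.4% to 37.1%). Of 2038 such lost regions it had the higher one in 48.1% (46.0% to 50.3%), and over all merged regions in 38.9%. Set against all regions, heterozygous 1 thus had the higher percentile less often at gained regions and more often at lost ones. The part of rank and list length in this was not tested. By rank, the median at gained regions was 34420 in heterozygous 1 and 35634 in wild type 3. At lost regions it was 71566 and 74588, each over the regions listed in that library, and the lists end at different ranks.

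Requiring wild type 3 and heterozygous 1 to follow their labels left 37 gained regions, 0.0302% of all regions, and 180 lost regions, 0.147%. Even there the margin between them was small. All 37 gained regions had a weaker peak in wild type 3, and the fold enrichment of heterozygous 1 over that of wild type 3 had a median ratio of 1.13, from 1.03 to 1.52. For the 172 lost regions with a peak in both, the median ratio of wild type 3 over heterozygous 1 was 1.13 (1.04 to 1.67), and in 10 of them it reached 1.5.

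**Figure D1:**
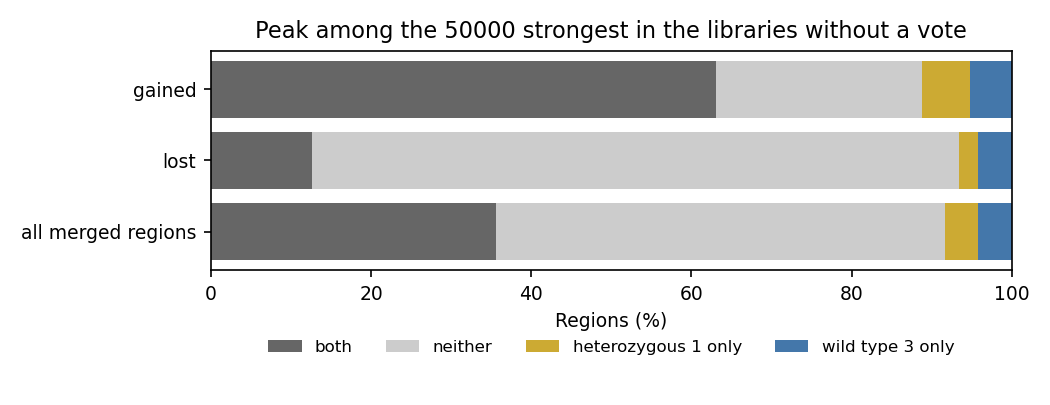
Share of gained, lost and all merged regions by whether wild type 3 and heterozygous 1 held them, in percent of regions. Most gained regions were in both (63.1%) and most lost regions in neither (80.8%), and the shares in only 1 library were similar for the 2 libraries among gained regions.

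Fold enrichment, the peak caller's linear ratio over local background, showed the same placement. In gained regions the median fold was 3.35 in wild type 1 and 3.48 in wild type 2, where a weaker peak was listed. Wild type 3 had 4.55, heterozygous 1 to 3 had 4.53, 4.76 and 4.73, and homozygous 1 to 3 had 4.93, 4.66 and 5.45. The 2 held-out libraries lay near the mutant libraries and above the other 2 wild type libraries. In lost regions the median fold was 4.66 in wild type 1 and 4.35 in wild type 2, against 3.54 in wild type 3, 3.50 in heterozygous 1 and 3.10 to 3.24 in the other 5 libraries, over those regions that had a peak there. Folds of different libraries were not brought to a common depth, and these medians restate in part what chose the regions.

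**Figure D2:**
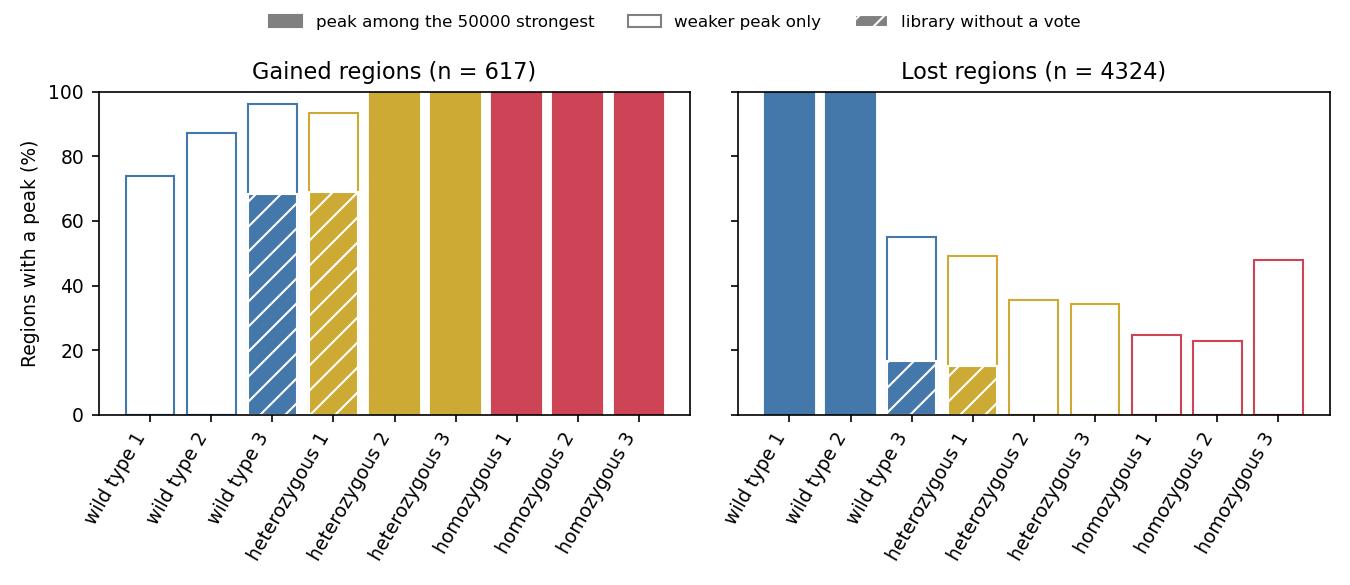
Percent of gained and of lost regions with a peak in each of the 9 libraries, coloured by genotype: filled bars are peaks among the 50000 strongest, open bars weaker peaks, and hatching marks the libraries without a vote. Filled bars at 0 or 100% are set by the rule, and those of wild type 3 and heterozygous 1 lie side by side, at 68.2% and 69.0% of gained and 16.8% and 15.1% of lost regions.

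Absence from the 50000 strongest peaks meant a weaker peak in both wild type 1 and wild type 2 for most gained regions. In any single voting mutant library most lost regions had no peak. Most of them still had a weaker peak in at least 1 of these libraries. Of the gained regions, 453 (73.4%) had a weaker peak in the full lists of both wild type 1 and wild type 2, 90 in 1 of them and 74 (11.99%) in neither. In each voting mutant library, 22.8% to 47.8% of the lost regions had a weaker peak. Of the lost regions, 1135 (26.2%) were without a peak in all 5 voting mutant libraries, full lists included, and 161 (3.72%) had a weaker peak in all 5. Members crowded at the rank limit: the weakest peak that a region needed ranked beyond 40000 in 324 gained (52.5%) and 2261 lost regions (52.3%). The last gained region inside had rank 49896 in heterozygous 2, and a gained candidate just outside failed at rank 50070 in homozygous 3. For lost regions the corresponding ranks were 49996 in wild type 2 and 50002 in wild type 1.

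The stronger gained regions were held by wild type 3 as often as the weaker ones or more often. Where the weakest needed peak ranked between 20001 and 30000, wild type 3 held 84.0% of 81 gained regions and heterozygous 1 held 85.2%. Between 40001 and 50000 these shares were 62.3% and 62.0% of 324. Lost regions ran the same way, with 26.0% of 605 held by wild type 3 between ranks 20001 and 30000 and 13.8% of 2261 between 40001 and 50000.

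Exact sharing of intervals was common among lost regions. Wild type 1 and wild type 2 had an identical interval in 1199 of 4324 lost regions (27.7%), against 10.9% of all regions found in both and 4.18% of the 18168 regions in all 9 libraries. Setting those 1199 aside, a choice made after seeing the data, left 3125 lost regions. A peak in wild type 1 and wild type 2 and in no other full list was found for 798 lost regions (18.5%), and 336 of these (42.1%) had the identical interval. In gained regions, heterozygous 2 and 3 had an identical interval in 19 (3.08%). Wild type 3 and heterozygous 1 had one in 140 of the 389 gained regions found in both (36.0%) and in 240 of the 546 lost ones (43.96%), against 14.3% of the regions in all 9 libraries. The part of shared intervals in the count of lost regions, and in the check with the held-out libraries, was not tested.

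The strongest gained regions gave the pattern in single libraries. The ELF5 region (chr11:34534294-34535189), shown first above, had a fold of 2.68, 3.68 and 9.15 in wild type 1 to 3, 9.57, 7.48 and 6.76 in heterozygous 1 to 3 and 6.82, 7.32 and 7.32 in homozygous 1 to 3. Wild type 3 was the second highest of the 9 and overlapped the mutant libraries, while wild type 1 and 2 lay under all of them.

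The PPM1H region (chr12:63294322-63295065) had folds of 3.97, 3.85 and 5.80 in wild type, 5.62, 8.70 and 7.72 in heterozygous and 6.18, 5.62 and 6.25 in homozygous libraries. An intergenic region 85.4 kb from ZBTB18, a gene for a transcriptional repressor (chr1:244300436-244301451), had 3.22, 3.80 and 6.16 in wild type, 5.43, 6.93 and 6.22 in heterozygous and 5.63, 6.46 and 6.39 in homozygous libraries. In both, wild type 3 was above the lowest mutant library. A region in BTBD1 (chr15:83706394-83706900) had no peak in wild type 1 and 2 and a fold of 5.49 in wild type 3, within the mutant range of 5.10 to 8.41. At a region 13.1 kb from MZF1 (chr19:59097786-59098303) the values were 3.27, 3.40 and 4.50 in wild type, no peak, 6.57 and 5.96 in heterozygous and 6.60, 8.71 and 6.25 in homozygous libraries. There the library labelled heterozygous 1 was the one with no peak.

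The DUSP13 region with the CTCF match had 3.70, 3.98 and 7.45 in wild type, 7.77, 4.996 and 6.79 in heterozygous and 6.90, 5.45 and 7.17 in homozygous libraries, with wild type 3 the second highest.

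The strongest lost region, near CCDC178 (chr18:31049542-31050170), was also the clearest by the labels. It had a fold of 12.5, 11.0 and 4.27 in wild type 1 to 3 and was not listed at any rank in the 6 mutant libraries. Wild type 3, at 4.27, was far under the other wild type libraries. A region over a UTR exon where the annotations of ABI2 and RAPH1 overlap (chr2:204259229-204259728) had 11.4, 11.0 and 3.66 in wild type and no peak in any mutant library. A region 39.5 kb from DACH1, a gene for a nuclear corepressor (chr13:72480511-72481128), had 8.68, 9.33 and 3.66 in wild type and no peak in the mutant libraries. Those 3 regions were thus listed in wild type libraries alone, with wild type 3 the lowest in each.

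Other strong lost regions had weaker peaks in mutant libraries. The AGA-DT region (chr4:178449634-178450169) had 9.20, 10.6 and 6.05 in wild type 1 to 3, 5.55, no peak and 3.16 in heterozygous 1 to 3 and no peak, no peak and 3.60 in homozygous 1 to 3. A region in an intron of ACYP2 (chr2:54333988-54334500), the gene of an acylphosphatase, had 9.70, 9.79 and 5.75 in wild type, 5.50, 2.75 and no peak in heterozygous and 3.11, 2.96 and no peak in homozygous libraries. A region 63.3 kb from HPGD, the gene of the enzyme that degrades prostaglandins (chr4:175507282-175507812), had 8.67, 8.46 and 3.38 in wild type, 4.15, 3.03 and 2.62 in heterozygous and 2.75, 3.33 and 3.60 in homozygous libraries. Wild type 1 and 2 stood clear of all others in these 3, while wild type 3 was close to heterozygous 1 in the first pair and within the mutant range in the last. The USP13 region with its CTCF match, at 5.55, 5.05 and 4.37 in wild type against 3.92 in heterozygous 1, at most 2.93 in the other mutant libraries and no peak in homozygous 2 and 3, had all wild type libraries on top.

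Regions that followed the labels in all 9 libraries, named here after their values were seen, included an intergenic gained region 61.2 kb from a start site of ATF3, a stress-induced partner of AP-1 proteins (chr1:212676940-212677944). Its folds were 3.86, 4.06 and 3.96 in wild type, 5.68, 5.93 and 5.96 in heterozygous and 5.60, 5.12 and 8.39 in homozygous libraries, with no overlap. Such a separation is largely set by the way these regions were chosen. A region in an intron of PTPN13, a tyrosine phosphatase gene (chr4:87651134-87652336), had 4.02, 3.67 and 3.99 in wild type, 4.15, 6.40 and 5.68 in heterozygous and 7.56, 5.99 and 5.91 in homozygous libraries. Here heterozygous 1 exceeded the highest wild type library by little. At a start site of AARSD1 (chr17:41115900-41117583) wild type 1 and 2 had no peak, wild type 3 had 3.66 and heterozygous 1 to 3 had 4.47, 6.12 and 5.41, with 4.80, 4.15 and 4.99 in homozygous libraries. A region in an intron of BCR, one of the genes fused in chronic myeloid leukaemia (chr22:23590597-23591114), had no peak in wild type 1 and 2, 2.90 in wild type 3, 3.38, 4.10 and 4.68 in heterozygous and 4.74, 3.56 and 5.08 in homozygous libraries.

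On the lost side, a region in an intron of SOX5 (chr12:24305118-24305635) had 9.37, 7.96 and 4.27 in wild type, 3.83, no peak and 2.703 in heterozygous and 3.44, no peak and 3.003 in homozygous libraries. A region 126 kb from RAP1B, the gene of a small GTPase that acts in integrin signalling (chr12:68878226-68878733), had 7.36, 7.35 and 4.27 in wild type, 3.79, 2.72 and 3.81 in heterozygous and 3.39, 3.25 and 3.88 in homozygous libraries. The groups did not overlap in either, which the choice of regions by all 9 labels largely sets. Wild type 3 lay much nearer to the mutant libraries than to wild type 1 and 2.

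**Figure D3:**
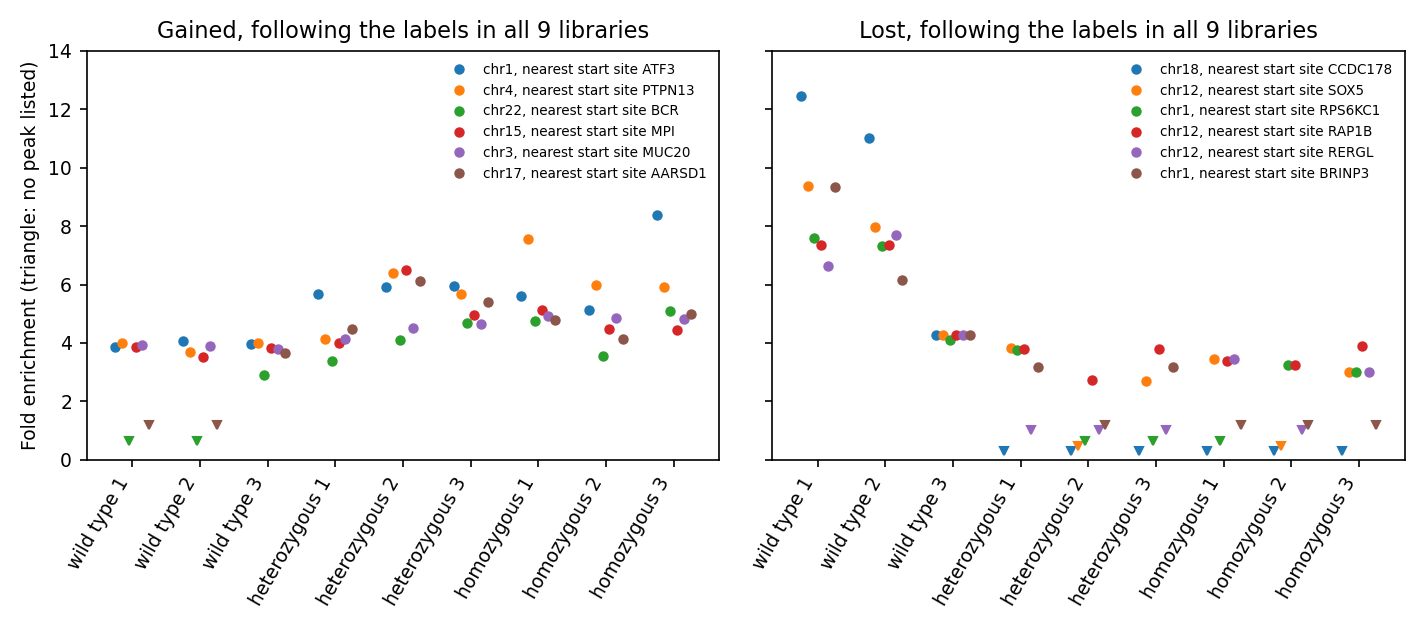
Fold enrichment in each of the 9 libraries for 6 gained and 6 lost regions that followed the labels in every library, with a triangle where no peak was listed. Wild type 3 lies at 2.90 to 3.99 in the gained regions and at 4.12 to 4.27 in the lost ones, near heterozygous 1 in most of them.

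At only 6 gained regions did all wild type libraries lack a peak at any rank, and heterozygous 1 had none there either. The strongest, 48.9 kb from PDE5A, the gene of a cyclic GMP phosphodiesterase (chr4:120391133-120391670), held an AP-1 match and had folds of 5.44 and 5.37 in heterozygous 2 and 3 and 5.35, 4.85 and 7.18 in homozygous libraries. One in an intron of PCNX1 (chr14:71391540-71392056) had 4.76, 7.43, 4.81, 4.66 and 4.80 in the same order. The others were nearest to ANKRD30A, ANTXR1, CYP26B1 and DHX15, with folds between 3.896 and 8.838. These 6 were singled out after their values were seen, and in all of them heterozygous 1 lay with wild type.

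Position was not used by the rule, but the number of libraries that held a region was, and position differed with that number. Gained regions were wide, with a median of 822 bp, and lost regions were narrow, with a median of 505 bp close to a single 500 bp window. All merged regions had a median of 517 bp and the regions in all 9 libraries 1203 bp. Region width grows with the number of peaks merged, and gained regions needed 5 of them. The centre lay within 1 kb of a protein-coding start site in 101 gained regions (16.4%, 13.7% to 19.5%) and in 130 lost ones (3.01%, 2.54% to 3.56%). The shares were 9.90% of all regions and 38.6% of those in all 9 libraries, so gained regions lay between these and lost regions under both. The median number of libraries holding a region was 7 for gained, 2 for lost and 2 for all regions. How far position, GC content and motif shares follow that number was not tested. The shares depended on the number of peaks ranked, being 36.4% of gained and 6.33% of lost regions with 20000 peaks and 9.18% and 1.68% with 100000, where the shares of all regions were not computed.

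Introns of protein-coding genes held 46.2% of gained and 39.2% of lost regions, against 40.6% of all regions. Intergenic DNA held 33.7% of gained, 40.0% of lost and 37.1% of all regions. The median distance to a start site was 19.8 kb for gained and 55.4 kb for lost regions. It was 36.4 kb for all regions and 8.95 kb for those in all 9 libraries. Median GC content was 52.3% in gained, 46.0% in lost and 47.7% in all windows, and 56.3% in windows of the regions in all 9 libraries. Among gained regions, those in both wild type 3 and heterozygous 1 lay near a start site in 17.7% and those in neither in 11.9%.

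Gained regions at start sites included one at EML2 (chr19:46148651-46149746), a gene of a microtubule-associated protein. Its folds were 3.56, 3.69 and 5.99 in wild type, 6.38, 6.85 and 5.69 in heterozygous and 5.65, 5.02 and 4.74 in homozygous libraries. At GAB1, the gene of a docking protein of growth factor receptors (chr4:144302360-144303351), they were 2.92, 3.78 and 4.96 in wild type, 3.78, 4.68 and 5.19 in heterozygous and 5.25, 5.86 and 6.48 in homozygous libraries. Wild type 3 overlapped the mutant libraries at both. Lost regions at start sites included EPHA3, the gene of an ephrin receptor (chr3:89156502-89157066), with 7.36, 6.13 and 3.66 in wild type, 3.19, no peak and 3.38 in heterozygous and 2.75, 3.33 and 4.204 in homozygous libraries. Wild type 3 fell within the mutant range there.

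AP-1 was the motif with the most percentage points between gained and all windows. TGANTCA was in 135 of 617 gained windows of 300 bp (21.9%, 18.8% to 25.3%), in 13.2% (12.2% to 14.2%) of lost windows, in 16.3% of all windows and in 13.5% of windows of the regions in all 9 libraries. At 2 kb downstream the shares were 11.8% for gained, 9.69% for lost and 8.98% for all regions, so gained regions also lay in DNA with somewhat more matches. Away from start sites the shares were 24.2% of 516 gained, 13.3% of lost, 17.3% of all and 19.2% of all-library regions. Among the 37 gained regions that followed all labels, 5 windows (13.5%, 5.91% to 28.0%) had the motif. Centred on the merged region instead of the strongest peak, the gained share was 17.7%. With 20000 peaks ranked, gained and lost regions had near-equal shares, 16.5% and 16.2%, and with 100000 they had 22.3% and 11.1%.

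For comparison, 778 of 2027 regions present in the homozygous libraries alone (38.4%, 36.3% to 40.5%) had an AP-1 match, above the gained regions by more than both intervals. The longer NF-E2 form GCTGANTCA, an erythroid relative that contains the AP-1 letters, was in 6.48% (4.80% to 8.71%) of gained, 2.31% of lost and 3.25% of all windows. Regions present in the homozygous libraries alone had it in 6.91%, near the gained share. The share of gained windows with AP-1 was 20.3% where both held-out libraries had the region and 25.8% (19.6% to 33.1%) where neither had it.

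GATA letters went the other way. AGATAA was in 15.6% (12.9% to 18.6%) of gained windows, 24.1% (22.8% to 25.4%) of lost windows and 20.2% of all windows. At 2 kb downstream of the same regions it was in 17.0%, 21.8% and 19.9%, so gained regions were also under lost regions beside the peaks, by a smaller margin. With 20000 peaks ranked the gained share was 8.86% and the lost share 25.9%. The erythroid composite of the E-box letters CTG with 7 or 8 bases before AGATAA was in 3.24% (2.11% to 4.95%) of gained, 1.94% of lost and 2.09% of all windows, and in 0.972%, 0.740% and 0.755% downstream.

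CTCF matches were in 14 gained windows (2.27%, 1.36% to 3.77%) and 89 lost windows (2.06%, 1.68% to 2.53%), against 3.03% of all regions and 4.87% of those in all 9 libraries. Downstream the share was at most 0.162% in these sets. The lost share was 6.95% with 20000 peaks and 0.563% with 100000, and the shares of all regions at those settings were not computed, so its place against all regions holds for 50000 peaks alone. Lost regions that both wild type 3 and heterozygous 1 held had a CTCF match in 5.31% (3.72% to 7.52%), and those that neither held in 1.52% (1.16% to 1.98%). The KLF box CCACACCC was in 5.997% (4.38% to 8.16%) of gained, 3.05% of lost and 3.65% of all windows. RUNX letters, TGTGGT, were in 22.9% of gained, 22.8% of lost and 22.6% of all windows. ETS (CCGGAAGT), at 0.810% of gained and 0.301% of lost windows, was rare. TEAD (GGAATG), STAT (TTCNNNGAA) and CEBP (TTGCNNAA) were in 15.9%, 8.91% and 10.2% of gained and 15.0%, 8.05% and 13.1% of lost windows, against 15.4%, 8.62% and 12.2% of all windows. A match describes letters and not binding.

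**Figure D4:**
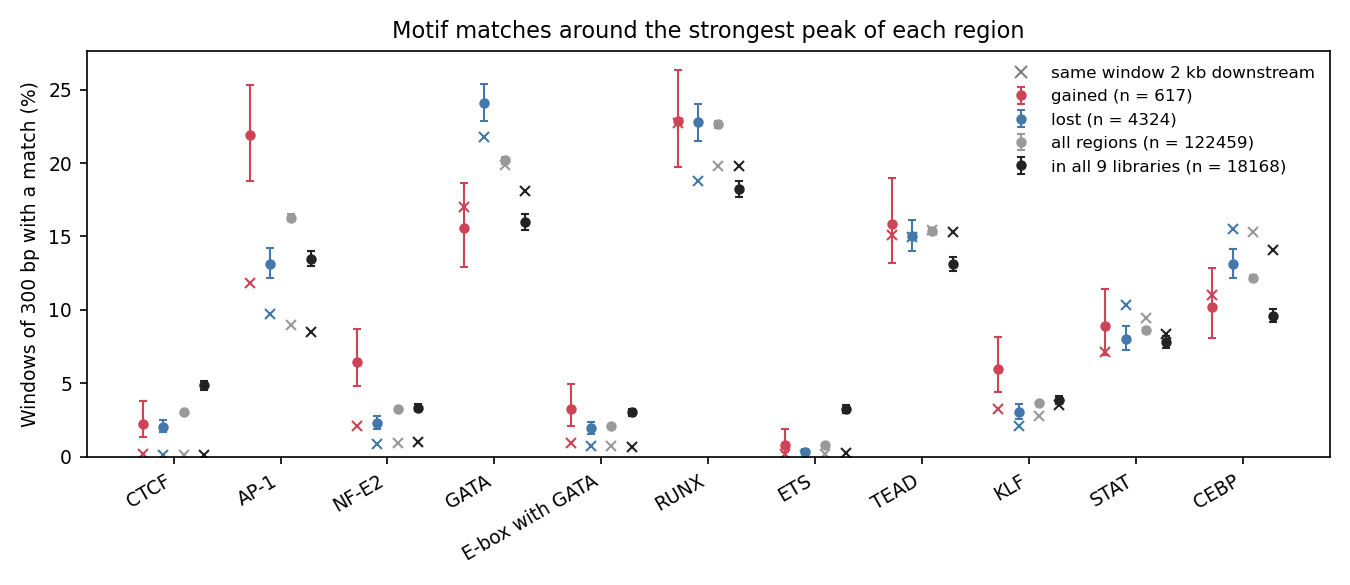
Percent of 300 bp windows with at least 1 motif match in gained, lost and comparison regions, with 95% Wilson intervals and crosses for the same windows moved 2 kb downstream. AP-1 is in 21.9% of gained and 13.2% of lost windows, GATA in 15.6% and 24.1%, and both RUNX shares lie near 22.6%, the share of all windows.

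Members were found on all 17 chromosomes, and their shares ran in opposite directions on chromosomes 13 and 22. Gained regions were 1.32% (0.884% to 1.98%) of the regions on chromosome 22, 0.928% on 20, 0.896% on 17 and 0.887% on 19, and 0.318% (0.186% to 0.543%) on 13. Lost regions were 5.99% (5.30% to 6.75%) of those on chromosome 13 and 4.60% on 14, and 1.84% (1.31% to 2.59%) on 22. Whether these shares follow the gene density of the chromosomes was not tested. Copy number differences between libraries were not tested. In windows of 1 Mb, 24.4% of 1955 windows had a gained region, with at most 5 in 1 window, and 79.2% had a lost region, with at most 13.

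**Figure D5:**
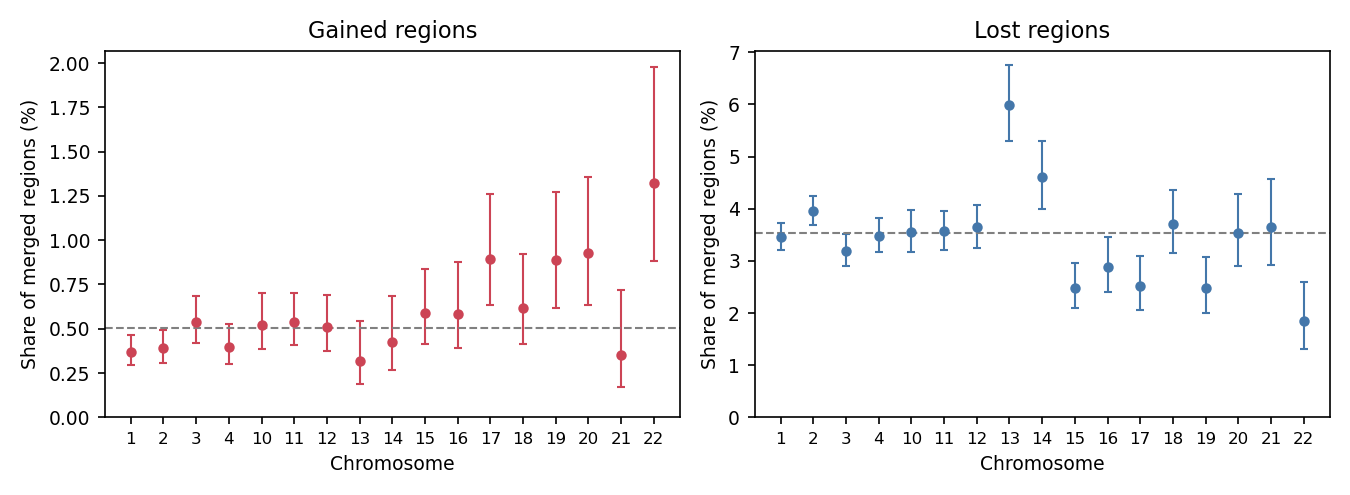
Gained and lost regions as percent of the merged regions on each of 17 chromosomes, with 95% Wilson intervals. Chromosome 22 has the highest gained share (1.32%) and the lowest lost share (1.84%), and chromosome 13 the lowest gained (0.318%) and the highest lost share (5.99%).

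Some genes gathered several members. CECR2, which encodes a bromodomain protein of a chromatin remodeller, had 3 gained and 1 lost. Lost regions were most numerous at long genes: 9 at HMCN1 (457 kb), 8 at PCDH9 (928 kb), 7 at CAMK2D (344 kb) and 7 at NFIA (598 kb). PCDH9 encodes a protocadherin, CAMK2D a calcium/calmodulin-dependent kinase and NFIA a transcription factor that acts in erythroid and glial cells.

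Genes of fixed lists were scored by a member in the gene body or within 10 kb, where 3.36% of 14852 protein-coding genes had a gained and 13.1% a lost region. Of 11 cohesin genes 1 had a gained region, MAU2, part of the cohesin loader. That region (chr19:19471764-19472526) had no peak in wild type 1 and 2, 4.27 in wild type 3, 4.47, 4.57 and 5.41 in heterozygous and 4.26, 5.48 and 4.61 in homozygous libraries, so wild type 3 was within the mutant range. Lost regions were at 2 cohesin genes, STAG1 and PDS5B, the latter a regulator of cohesin release. The STAG1 region (chr3:136370393-136370897) lay in an intron 101 kb from the nearest start site and had 5.35, 5.51 and 3.05 in wild type, 3.83, 2.72 and 2.703 in heterozygous and no peak in homozygous libraries. Wild type 3 was under heterozygous 1 there.

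Of 29 erythroid genes, 1 had a gained and 6 a lost region. The gained one lay at a start site of LDB1, the cofactor that bridges GATA and TAL1 complexes (chr10:103879009-103881417), with 3.66, 3.73 and 3.16 in wild type, 3.50, 4.26 and 6.74 in heterozygous and 3.996, 3.96 and 4.04 in homozygous libraries. Wild type lay under the 5 voting mutant libraries and heterozygous 1 among wild type. A lost region in an intron of UROS, a haem synthesis gene (chr10:127506034-127506533), had 5.02 and 4.42 in wild type 1 and 2 and no peak in the other 7 libraries, wild type 3 included. SOX6, a repressor of embryonic globin, had 4 lost regions, and SPTB (spectrin) and HBZ 1 each. The remaining 2 of the 6, HBE1 among them, were counted through the same 2 regions inside long annotated transcripts beside the olfactory receptor genes OR51B5 and OR52D1, away from the globin promoters.

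Of 20 megakaryocyte genes, 1 had a gained region, at ITGB3, and 3 a lost one: PEAR1, FLI1 and ITGA2B. ITGB3 and ITGA2B encode the 2 chains of the platelet fibrinogen receptor. The ITGB3 start site region (chr17:45330890-45331835) had 2.68, 3.06 and 4.27 in wild type, 4.47, 4.76 and 4.05 in heterozygous and 4.07, 3.71 and 4.30 in homozygous libraries. The ITGA2B region, 0.261 kb from a start site (chr17:42467018-42467527), had 5.42 and 4.52 in wild type 1 and 2, no peak in wild type 3 or any heterozygous library and 2.25, no peak and 3.11 in homozygous libraries. Wild type 3 lay with the mutant libraries at both.

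Of 15 progenitor genes none had a gained region and 3 a lost one, CD34, PROM1 and ERG. The CD34 region (chr1:208061864-208062366) had 4.74, 4.05 and 2.93 in wild type 1 to 3, no peak in heterozygous libraries and a peak in homozygous 3 alone among the mutant libraries. Of 46 adhesion genes, 2 had a gained region, ITGAX and ITGB3, and 9 a lost one, among them ITGAV, ITGB1, FN1 and VCL, the genes of integrin chains, fibronectin and vinculin. At ITGAX, an integrin gene of myeloid cells (chr16:31365720-31366713), wild type 1 and 2 had no peak, wild type 3 had 3.36, heterozygous libraries 3.51, 4.76 and 4.73 and homozygous libraries 5.50, 4.61 and 6.03, so the groups did not overlap.

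Of 18 AP-1 genes, 1 had a gained region and 2 a lost one, FOSL1 and BACH1. The gained region lay 1.40 kb from a start site of BATF3 (chr1:212873969-212874828), the neighbour of ATF3 on chromosome 1, with 3.39, 2.99 and 4.34 in wild type, 4.68, 4.55 and 4.27 in heterozygous and 4.22, 3.78 and 4.11 in homozygous libraries. Wild type 3 exceeded 4 of the 6 mutant libraries there. Of 13 TEAD and YAP genes none had a gained and 2 a lost region, and of 26 interferon genes none and 2. Genes differ in length, and a longer gene has more room for a member: the median length was 82.8 kb in the adhesion list and 26.6 kb over all protein-coding genes.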

How the data were processed

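ATAC-seq was run on 50000 cells per replicate with 100 bp single-end reads, per the labels. Reads were trimmed with cutadapt, aligned with Bowtie2 2.2.9, handled with Picard and given peaks with MACS2 2.1.0 on hg19/GRCh37, as far as the submitters' processing notes name tools, with no order or settings given. The authors deposited 1 headerless peak list per library. By the narrowPeak format it holds a fold enrichment (a linear ratio), the −log10 of a p-value and of a q-value, and other deposited columns, a display score and an offset, which were not used as measurements. All these values are the authors'. About 4 in 5 intervals were 500 bp windows and longer ones were joined windows with averaged values, as read from the intervals. The offset did not mark a base of the deposited interval, so the midpoint was the centre.

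Lists were ranked, merged and voted on as the report states, with Python 3.11.15, pandas 2.3.3, numpy 2.4.6, scipy 1.17.1 and pysam 0.24.0. No model was fitted, because the lists hold no counts, and depth is unknown. Shares have 95% Wilson intervals. Gene models were GENCODE release 44 in GRCh37 coordinates, and 67374 protein-coding transcript starts on the chromosomes used. Fixed motifs were searched in 300 bp windows. Regions were named by rule: 6 per direction with the highest lowest within-list percentile, then the strongest with no peak on the other side, at start sites and at listed genes. The members and lists were chosen with earlier results of these data known. The voting script was tested on simulated data. Chromosomes 5 to 9 and X were outside the rule and not analysed here. Some genes and sequences that the naming rule selects are not reported here.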

Additional observations from a re-analysis of the deposited data

Results flagged for a closer look

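Heterozygous 1, which took no part in choosing the members, held 69.0% of the gained regions among its 50000 strongest peaks, and wild type 3, the control set aside with it, held 68.2%. The regions were looked up in these libraries because the choice had not used them. Of all regions in the 5 voting mutant libraries, which gained regions are by rule, heterozygous 1 held 96.0% and wild type 3 held 96.2%. These libraries share 46.0% of the shorter list's intervals exactly. The difference between them was not tested, with 1 library per genotype.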

How the results depend on the processing

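No paired analysis was possible because the results come from no test, although the genotypes share replicate numbers. With 20000, 30000 and 100000 peaks per list and with full lists, gained regions numbered 316, 400, 1198 and 1224 and lost regions 1280, 2014, 13139 and 27725, and with 75000 peaks lost regions numbered 8713. Ranking over chromosomes 1 to 22 and X gave 2390 lost regions. After members with any weaker peak on the other side were dropped, 74 gained and 1135 lost regions were left, and with all 9 libraries voting 37 and 180. Leaving out 1 voting library, a looser rule that can only raise the counts, gave 800 to 1087 gained and 4765 to 8699 lost regions. Of members in exactly 1 held-out library, the share that followed the labels went from 53.6% to 40.0% with 75000 peaks, 29.2% with full lists and 80.0% (4 of 5 regions) with no peak on the other side for gained regions. For lost regions it went from 63.2% to 55.7%, 56.9%, 54.2% and 53.4% with 20000, 30000, 75000 and 100000 peaks, 75.7% with full lists, 56.1% with the wider ranking and 75% (21 of 28) with no peak on the other side. The cause of these shifts was not tested. The gained share was under an even split at every other number of peaks and in the full lists, and also when ranked by fold (46.97%) or over the wider set of chromosomes (47.4%). It was over an even split when ranked by −log10 q (53.5%), with merging at 100 bp overlap (53.6%) and without any 1 voting library (50.4% to 54.4%). The AP-1 share of gained windows ran from 13.5% to 26.9% over 13 alternatives. Without the identical intervals of wild type 1 and 2, an alternative chosen after seeing the data, AP-1 was in 12.9% and GATA in 24.8% of 3125 lost windows. Depth is unknown, and a peak that a library missed counts as absent.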
